A study of Rattus norvegicus with 2 samples.

Results

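Integrin subunit and laminin chain genes were followed in muscle-derived stem cells (MDSC), a skeletal muscle stem cell culture, from male obese Zucker fa/fa rats. The members were all genes whose single symbol in the annotated table names an integrin alpha or beta subunit or a laminin alpha, beta or gamma chain. The rule itself uses symbols and no measured values. They came to 31 of the 18486 genes in the table, 22 integrin subunits and 9 laminin chains, read by 33 probe sets. Itgav, Itga9, Itgae, Itgb3, Lamb1 and Lamb4 are not analysed here.

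The study concerns therapy of rat erectile dysfunction by implanting MDSC, and it sets 1 sample labelled late diabetes against 1 sample labelled early diabetes. Both groups are cells of the same sex and strain, and all carry the fa/fa genotype, a defect of the leptin receptor that makes the rats obese and insulin resistant. The labels give no rat age, no lean control and no count of rats or wells behind a sample. They list 5.6 mM or 22 mM glucose with 20% serum for both samples alike, so the glucose behind each array is unknown. Per sample there was 1 array, the Affymetrix Rat Gene 1.0 ST, whose many short probes per transcript are summarised into a probe set. The spread between cultures or animals cannot be estimated from 1 array in each group, so there is no test, and every statement below describes these 2 arrays.

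Integrins are cell surface receptors made of an alpha and a beta subunit, which hold cells to the extracellular matrix and pass signals across the membrane. The alpha subunit largely sets which ligand is bound, and beta1 pairs with most of the alpha subunits listed here. Laminins are trimers of an alpha, a beta and a gamma chain and form the basement membrane that wraps muscle fibres. In muscle, the alpha7 beta1 integrin and dystroglycan are the main laminin receptors, and loss of LAMA2 in humans causes a congenital muscular dystrophy.

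Values are the authors' normalized intensities on a linear scale, and differences are late minus early on the log2 scale. Genes counted as compared if their higher value was no lower than the median of all gene values, an intensity of 261 (log2 8.03). This kept 9737 genes and 18 of the 31 members. The background level was an intensity of 112 (log2 6.81), under which 95% of the values of 1199 olfactory receptor genes lay. That these receptors are silent in MDSC was assumed and not tested. A fold whose lower value fell below that level is a bound and carries the words "at least". The intensity of one gene is not read as higher or lower expression than that of another, since probe sets differ in how strongly they bind. Summed intensities of marker lists are weighted towards their brightest probe sets. Each sum is set only against the same sum in the other array.

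The label was compared with markers of satellite cells and myoblasts, of which 4 of 11 were bright enough to be compared. The neural adhesion molecule gene Ncam1 was at 4248 in the late and 4028 in the early array, and the intermediate filament gene Des at 310.0 and 196. Pax7, the transcription factor that defines satellite cells, was at 166 in the late and 164 in the early array, under the floor for comparison. Myod1, the myoblast determination factor, was at 101 in the late and 116 in the early array. The defining transcription factor genes of muscle stem cells were therefore dim on both arrays. None of 7 endothelial markers was compared, and 1 of 7 Schwann cell markers was. Of 8 pericyte and smooth muscle markers 5 were compared, all 5 lower in the late array, against 42.6% of all compared genes. The summed list intensity was 15709 in the late and 23303 in the early array. Of these 5, only Cspg4, named after its value was seen, passed 2-fold. Cspg4 was at 437 in the late and 2279 in the early array, 5.22-fold lower.

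A 2-fold or greater difference was seen in 8 of the 18 compared members, with 4 higher and 4 lower in the late array. The higher ones were Itga2, Itga3, Itgax and Lamb3, and the lower ones Itga4, Itga11, Lama5 and Itga7. Itga2, Itgax, Lamb3, Itga4 and Lama5 reached the floor only in the array where their value was higher. The same threshold was passed upward by 5.84%, downward by 3.1% and in either direction by 8.95% of all 9737 compared genes. The median difference was 0.16 over the compared members and 0.060 over all compared genes. Over all 31 members, dim ones included, it was -0.060, so the median has no settled sign. At 1.5-fold or more, 6 members were higher and 4 lower, against 12.1% and 6.47% of all compared genes. The alpha subunits made up 6 of the 8 members that passed 2-fold. Both compared beta subunits, Itgb1 and Itgb5, lay within 1.5-fold, as did 81.4% of all compared genes.

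**Figure D1:**
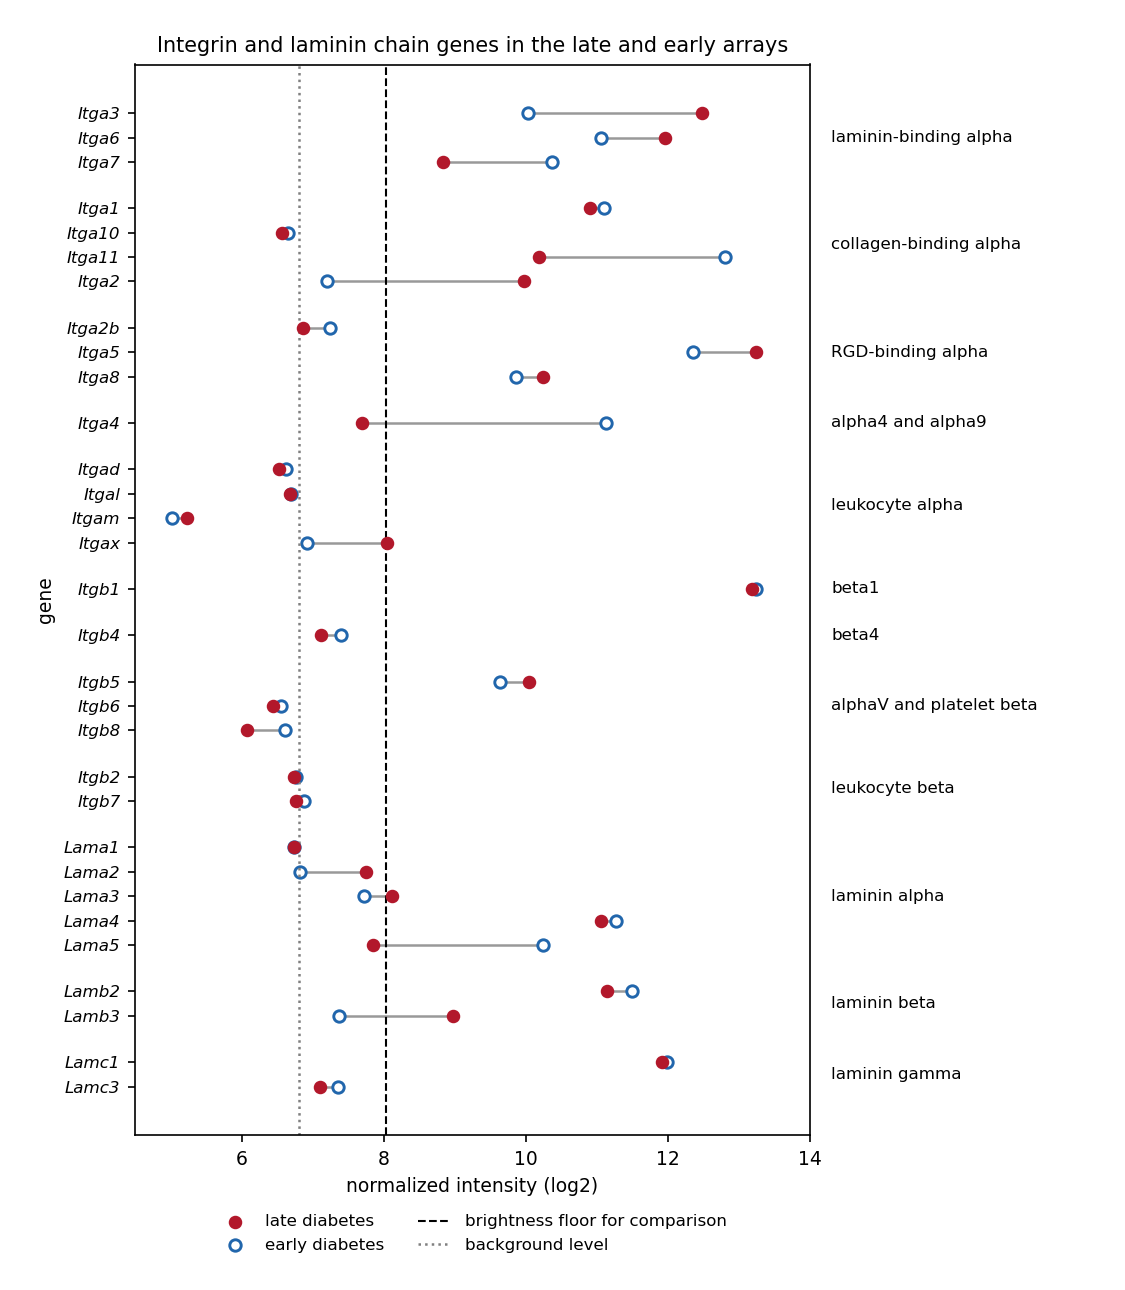
Normalized intensity (log2) of each of the 31 members in the late array (filled red) and the early array (open blue), grouped by ligand or chain class, with 1 array per group and no error bars. The dashed line is the brightness floor of 8.03 and the dotted line the background level of 6.81. The longest connecting line is that of Itga4, while Itgb1 and Lamc1 have nearly coinciding points.

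**Figure D2:**
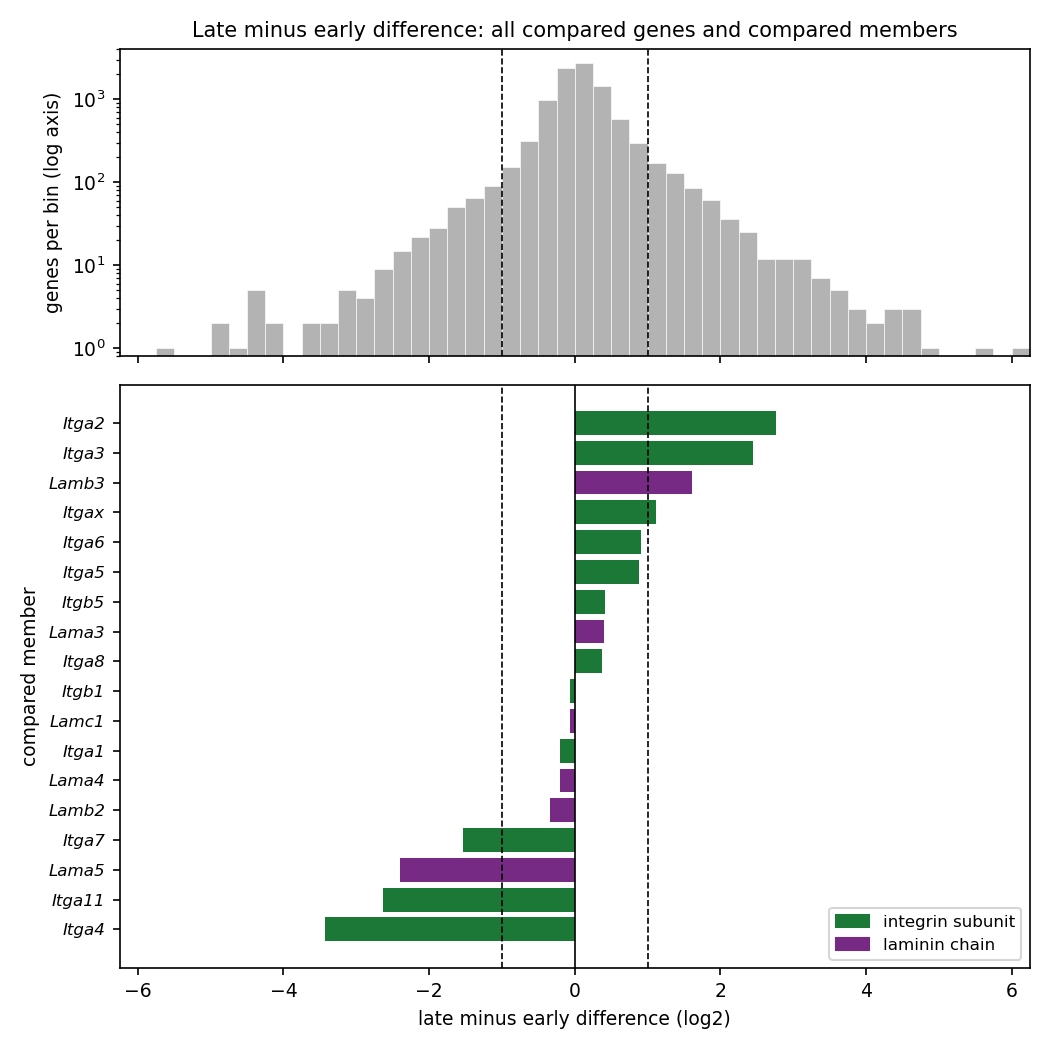
Upper panel, number of genes per 0.25 log2 bin of the late minus early difference over the 9737 compared genes, on a log axis. Lower panel, the difference of the 18 compared members, integrin subunits in green and laminin chains in purple, with dashed lines at 2-fold. Itga4, Itga11, Lama5 and Itga7 pass the line on the lower side, and Itga2, Itga3, Lamb3 and Itgax on the higher side.

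The promoters of the members with the largest differences are shown so that the higher and lower genes can be set side by side. Of the 31 members, 24 had an entry in the RefSeq promoter table of the GRCr8 rat assembly, and the 250 bases before the annotated start are printed 5′ to 3′ on the gene's strand. Capitals mark matches on either strand. The motifs searched were the GC box (GGGCGG), the AP-1 element (TGANTCA) and the Ets core (CCGGAA). Also searched were the letters TATAAA, called the core promoter box below, and the CArG box and NF-kB element by name. No matches overlapped in the 4 sequences shown. The first 2 genes were higher and the last 2 lower in the late array.
Itga2 (GRCr8 chr2:48354510-48354759, minus strand): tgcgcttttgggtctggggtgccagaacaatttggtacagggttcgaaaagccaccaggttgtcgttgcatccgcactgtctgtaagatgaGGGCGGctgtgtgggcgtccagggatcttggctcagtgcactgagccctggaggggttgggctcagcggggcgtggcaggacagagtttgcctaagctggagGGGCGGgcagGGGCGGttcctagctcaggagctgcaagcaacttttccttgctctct
Itga3 (GRCr8 chr10:80518902-80519151, minus strand): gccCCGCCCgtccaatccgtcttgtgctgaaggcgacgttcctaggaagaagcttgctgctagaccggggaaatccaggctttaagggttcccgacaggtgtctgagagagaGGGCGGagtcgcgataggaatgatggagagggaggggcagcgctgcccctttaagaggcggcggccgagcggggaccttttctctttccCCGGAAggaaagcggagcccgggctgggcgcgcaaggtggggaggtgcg
Itga4 (GRCr8 chr3:84569765-84570014, plus strand): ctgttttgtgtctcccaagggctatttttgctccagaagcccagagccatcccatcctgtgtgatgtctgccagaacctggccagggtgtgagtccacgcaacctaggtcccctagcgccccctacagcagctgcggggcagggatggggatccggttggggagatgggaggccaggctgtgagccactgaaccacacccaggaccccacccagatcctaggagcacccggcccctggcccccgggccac
Itga11 (GRCr8 chr8:72041182-72041431, plus strand): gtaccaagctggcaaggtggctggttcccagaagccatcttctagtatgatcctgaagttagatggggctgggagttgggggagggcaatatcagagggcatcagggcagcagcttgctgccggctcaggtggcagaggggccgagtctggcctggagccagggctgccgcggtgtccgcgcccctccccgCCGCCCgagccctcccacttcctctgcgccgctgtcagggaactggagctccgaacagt
The window of Itga2 held 3 GC boxes, that of Itga3 held 2 with 1 Ets core, that of Itga11 held 1 GC box, and that of Itga4 held none of the motifs. A GC box was found in 2 of the 4 promoters of the higher members, in 2 of the 3 available promoters of the lower members, and in 30.5% of all 33469 promoters of that length. An AP-1 element was found once among the 4 higher members, in Itgax, and in 0 of the 3 lower ones, against 6.34% of all promoters. An NF-kB element was found in Lamb3 among the higher members and in none of the 3 lower ones, against 6.33% of all promoters. The Ets core was found in 1 of the 4 higher members, Itga3, and in 0 of the 3 lower ones, against 12.6% of all promoters. No match to the core promoter box or the CArG box was found in these 7 promoters, where the shares over all promoters were 12.9% and 1.497%. A match is a string of letters and not a measured binding site.

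The receptors for collagen differed in opposite directions. Itga11 encodes the alpha11 subunit, a receptor for fibrillar collagen on fibroblasts and other mesenchymal cells. It was at 1163 in the late array and 7179 in the early array, 6.18-fold lower. Its difference of -2.63 was number 29 from the lowest among the 9737 compared genes. Itga2 encodes the alpha2 subunit, the collagen receptor of platelets and epithelia, which also binds laminin. Itga2 was at 1007 in the late and 148 in the early array, 6.83-fold higher, and its difference of 2.77 was number 50 from the highest. The early value of Itga2 lay under the floor for comparison but above the background level. Itga1, the alpha1 subunit with a preference for basement membrane collagen, was at 1912 in the late and 2196 in the early array, 1.15-fold lower.

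Itga10, the cartilage collagen receptor, was at 95.4 in the late and 100.5 in the early array, below background in both. Itga1 and Itga2 are neighbouring protein-coding genes in the RefSeq annotation, and of that pair Itga2 alone was more than 1.5-fold apart.

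Fibrillar collagens are among the ligands of these receptors. In a list of 8 fibrillar collagen genes, 8 of 8 compared genes were lower in the late array, against 42.6% of all compared genes. Their median difference was -0.52. Col11a1, a minor fibrillar collagen of cartilage, was at 419 in the late and 1658 in the early array, 3.95-fold lower. Col3a1, a collagen of soft connective tissue, was at 1612 in the late and 3402 in the early array, 2.11-fold lower. The other 6 were within 2-fold. Of 8 measured fibroblast and mesenchymal markers, 5 were compared, and the summed intensity of the list was 19415 in the late and 27803 in the early array. Most of that gap came from Col1a1 and Col3a1, which are also in the collagen list. Without them, a choice made after their values were seen, the sum was 10406 in the late and 12199 in the early array. The surface marker Thy1 was 1.24-fold lower, at 8968 in the late and 11105 in the early array. Other markers went the other way. Pdgfra, a growth factor receptor of mesenchymal cells, was 1.06-fold higher, and the proteoglycan gene Dcn at least 1.36-fold higher. Fap, which encodes fibroblast activation protein, was at least 2.58-fold higher, while Lum, a fibroblast proteoglycan gene, lay below background in both arrays. The part of these markers in the difference of Itga11 was not tested, and in such bulk RNA fewer cells of a type and less RNA per cell cannot be told apart.

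The receptors dedicated to laminin also split. Itga3, whose alpha3 subunit binds laminins that hold the alpha3 or alpha5 chain, was at 5723 in the late and 1046 in the early array, 5.47-fold higher. Its difference of 2.45 was number 67 from the highest. Itga6, a second receptor of the same kind that pairs with beta1 or beta4, was at 3998 in the late and 2131 in the early array, 1.88-fold higher. Itga7, the laminin receptor of skeletal muscle, was at 457 in the late and 1319 in the early array, 2.89-fold lower, with a difference of -1.53. Of the 3 laminin-binding alpha genes, the pair found in many epithelia was thus higher in the late array and the muscle type lower. Itgb4, the partner of alpha6 in the hemidesmosomes of epithelia, was at 139 in the late and 168 in the early array, too dim to be compared.

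Epithelial markers were dim on both arrays. None of the 6 measured markers was bright enough to be compared, and their summed intensity was 611 in the late and 680 in the early array. The epithelial genes Epcam, Cdh1 and Grhl2 lay below background in both arrays. The muscle markers that were compared went in both directions. Megf10, a receptor of satellite cells, was 2.42-fold lower, at 320.2 in the late and 775 in the early array, whereas Des was 1.58-fold higher. Summed over the 11 satellite cell and myoblast markers, the intensity was 10837 in the late and 8690 in the early array. That direction rests on Sdc4, a surface proteoglycan gene at 5102 in the late and 2767 in the early array. Without Sdc4, a choice made after its values were seen, the sum was 5735 in the late and 5922 in the early array. The part of these markers in the difference of Itga7 was not tested.

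Dystroglycan and the proteins bound to it are the other laminin receptor system of muscle. Of 18 compared genes in this list, 3 were lower by 2-fold or more and 0 higher by as much, against 3.1% and 5.84% of all compared genes. The median difference was 0.15, and 11 of the 18 had the higher value in the late array, near the 57.3% of all compared genes. Dag1, which encodes dystroglycan itself, was at 5437 in the late and 4402 in the early array, 1.24-fold higher. Dmd, the gene of dystrophin, which links the complex to actin, was at 165 in the late and 502 in the early array, 3.04-fold lower. The remaining 2 lower genes, named after their values were seen, were Sspn (2.55-fold), which encodes sarcospan, and Sgcd (2.46-fold), which encodes delta-sarcoglycan. Sntb1, a syntrophin that binds dystrophin, was 1.78-fold higher, at 3821 in the late and 2153 in the early array. The list thus had 3 genes that, like Itga7, were lower by 2-fold or more. Dmd and Sspn reached the floor only in the early array, where their values were higher, whereas Sgcd and Itga7 reached it in both. The share of genes in this list with higher values in the late array, Dag1 among them, was near that of all compared genes.

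Of the integrin alpha subunits that recognise the Arg-Gly-Asp motif of fibronectin and related ligands, 2 were compared and none passed 2-fold. Itga5, the fibronectin receptor subunit, was at 9653 in the late and 5212 in the early array, 1.85-fold higher. Itga8, a subunit of smooth muscle and kidney mesenchyme, was at 1211 in the late and 933 in the early array, 1.298-fold higher. Itga2b, the platelet fibrinogen receptor subunit, was at 117 in the late and 151 in the early array, 1.295-fold lower, and was too dim to be compared. All 5 measured platelet markers were also too dim to be compared. Fn1, the fibronectin gene and ligand of Itga5, was 1.06-fold higher, at 14139 in the late and 13351 in the early array.

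The largest difference of any member was that of Itga4. The alpha4 subunit pairs with beta1 or beta7, binds the vascular adhesion molecule encoded by Vcam1 and an alternatively spliced part of fibronectin, and is found on leukocytes, neural crest and myogenic cells. Itga4 was at 208 in the late and 2243 in the early array, 10.8-fold lower. Its difference of -3.43 was number 14 from the lowest of the 9737 compared genes. The late value lay under the floor for comparison and above the background level. Of its ligand genes, Vcam1 lay below background in both arrays, while Fn1 was at 14139 in the late and 13351 in the early array. The Fn1 value does not separate the alternatively spliced part. Itgb7 was at 109 in the late and 118 in the early array, so of the beta partners of alpha4 only Itgb1 was bright enough to be compared.

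The beta subunits differed little. Itgb1 was at 9268 in the late and 9657 in the early array, with a difference of -0.059. Itgb5, which pairs with alphaV in a vitronectin receptor, was read by 2 probe sets, at 369 and 3045 in the late array and at 258 and 2439 in the early array. Both probe sets of Itgb5 were higher in the late array, by 1.43-fold and 1.25-fold. Itgb6 and Itgb8, further partners of alphaV, lay below background in both arrays. Itgb2, the beta subunit of leukocyte integrins, was at 106 in the late and 109 in the early array, below background in both.

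Of the leukocyte alpha subunits, Itgal, Itgam and Itgad lay below background in both arrays. Itgax, the alpha subunit of a complement receptor of dendritic cells and macrophages, was at 264 in the late and 122 in the early array, 2.17-fold higher. Its late value lay just inside the floor of 261, and its partner Itgb2 was below background. Itgam, Itgax and Itgad are consecutive protein-coding genes in the RefSeq annotation, and Itgax alone of the 3 reached the floor. Some markers of white blood cells had higher values in the late array together with Itgax. Of 10 measured, 2 were compared, and both had the higher value in the late array, as did 57.3% of all compared genes. The summed intensity of the 10 was 1946 in the late and 1276 in the early array, values below background included. Its largest term was Cd14, 1.69-fold higher at 760 in the late and 449 in the early array. Cd68, which reached the floor only in the late array, was at least 2.49-fold higher. Cd79a went the other way, at 139 in the late and 160 in the early array. The pan-leukocyte gene Ptprc was at 57.4 in the late and 57.5 in the early array, below background in both, and Lyz2, Laptm5, Cd3e and Fcgr1a were also below background in both. The part of these cells in the difference of Itgax was not tested.

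Laminin alpha chains set the receptor that a laminin engages. Lama5, the alpha chain of many mature basement membranes, was at 229.9 in the late and 1216 in the early array, 5.29-fold lower. Its difference of -2.40 was number 37 from the lowest, and its late value lay under the floor for comparison. Lama4, the alpha chain of vessel and muscle laminins, was at 2135 in the late and 2467 in the early array, 1.16-fold lower. Lama3, an epithelial alpha chain, was at 279 in the late and 212 in the early array, 1.32-fold higher and just inside the floor. Lama1, an embryonic chain, lay below background in both arrays.

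Lama2, the main alpha chain of the muscle basement membrane, gave no settled value. One probe set was at 145 in the late and 144 in the early array. The other was at 322 in the late and 89.5 in the early array, at least 2.87-fold higher. Averaged, Lama2 was at 216 in the late and 114 in the early array, under the floor. For scale, the late minus early differences of 2 probe sets of one gene had an SD of 0.22 on the log2 scale. This was over 409 genes whose probe sets both reached the floor. The differences of the Lama2 probe sets were 0.0086 and 1.85. Lama2 is outside those 409 genes, since its first probe set lay under the floor in both arrays.

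**Figure D3:**
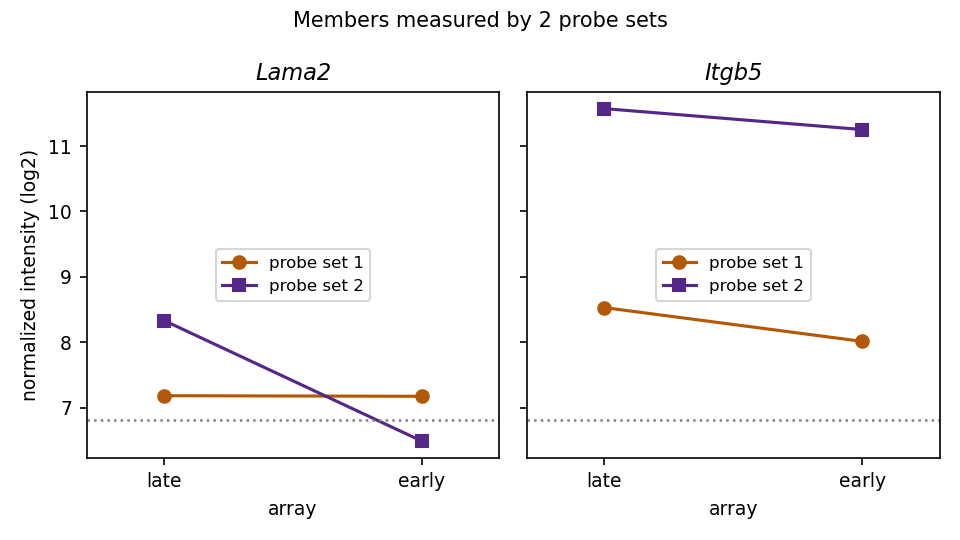
Normalized intensity (log2) in the late and the early array of the 2 members read by 2 probe sets each, with the background level of 6.81 as a dotted line. The lines of Itgb5 run in the same direction, while 1 probe set of Lama2 is flat and the other is at 8.33 in the late and 6.48 in the early array.

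Among the beta and gamma chains, Lamb3 stood apart. Lamb3 encodes the beta3 chain, part of the laminin of epithelial basement membranes. It was at 504 in the late and 165 in the early array, 3.05-fold higher, with a difference of 1.61. The early value of Lamb3 lay under the floor for comparison but above the background level. The beta2 chain gene Lamb2, which is known for its place at the neuromuscular junction, was at 2264 in the late and 2878 in the early array, 1.27-fold lower. The chain shared by most laminins, gamma1, had its gene Lamc1 at 3879 in the late and 4045 in the early array, with a difference of -0.060. Lamc3 was at 138 in the late and 164 in the early array and was not compared. The 6 compared laminin genes had a median difference of -0.13, with 2 higher and 4 lower in the late array, and the 12 compared integrin genes one of 0.40, with 7 higher and 5 lower. The integrin median turned to -0.067 over all 22 integrin members, dim ones included. Over all compared genes 57.3% had the higher value in the late array.

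Of the proteins that build a basement membrane around laminin, 12 of 14 compared genes were within 2-fold, as were 91.1% of all compared genes. The other 2 were higher, and the median difference was -0.12. Nid1, which encodes nidogen, the link between laminin and the collagen IV network, was at 6159 in the late and 6776 in the early array, 1.10-fold lower. Smoc2, a secreted calcium-binding matrix protein gene, was 2.28-fold higher, at 4388 in the late and 1929 in the early array, and Col15a1 was the other higher gene (3.33-fold). The collagen genes Col4a3 and Col18a1 were 1.67-fold and 1.58-fold lower.

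Inside the cell, integrin tails are bound by adaptors such as talin and kindlin. Of 28 compared adaptor and activator genes, 0 were higher by 2-fold or more and 1 was lower by as much, and the median difference was -0.00031. Tln1, the talin that switches integrins on, was 1.11-fold higher, at 2902 in the late and 2623 in the early array. Ilk, the integrin-linked scaffold kinase, was 1.07-fold higher, at 4702 in the late and 4388 in the early array. Ptk2, the focal adhesion kinase, was 1.11-fold lower, at 1632 in the late and 1815 in the early array. The lower gene was Lims2, a partner of integrin-linked kinase, 2.18-fold lower at 1508 in the late and 3283 in the early array. Ptk2b, the kinase most like Ptk2, was 1.68-fold lower, and Apbb1ip, which recruits talin, was 1.89-fold higher. Differences of 2-fold or more were found in 6 of the 10 compared alpha subunits and in 1 of the 28 compared adaptors. Of all compared genes, 8.95% passed that threshold. Measured were 15 alpha subunits and 33 adaptor and activator genes. Among the 6, Itga2, Itga4 and Itgax entered the comparison only through the array where their value was higher.

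**Figure D4:**
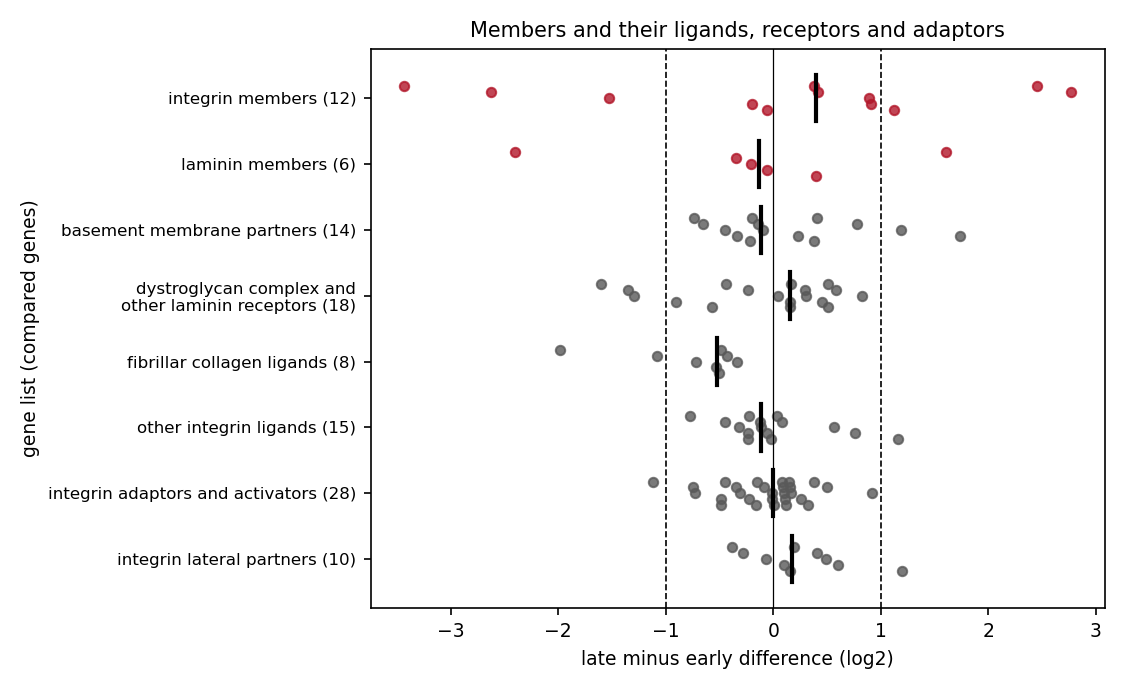
Late minus early difference (log2) of each compared gene, for the integrin and laminin members (red) and 6 lists of their ligands, receptors and adaptors (grey). Black bars are list medians, dashed lines mark 2-fold, and the number of compared genes stands in brackets. The adaptors run from -1.12 (Lims2) to 0.92 (Apbb1ip), with 24 of 28 within 1.5-fold, near the 81.4% of all compared genes. The fibrillar collagens are all on the lower side.

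Other ligands and lateral partners completed the set. Of 15 compared ligand genes, 1 was higher by 2-fold or more and 0 lower by as much, near the 5.84% and 3.1% of all compared genes. Nov, a CCN family matrix protein gene, was 2.23-fold higher, at 1608 in the late and 720.0 in the early array. Tgfb1, whose latent form is bound by alphaV integrins, was 1.69-fold higher, and Svep1, a ligand of alpha9 integrin, 1.71-fold lower. Of 10 compared partners in the membrane, the urokinase receptor gene Plaur alone passed 2-fold, again near the share of all compared genes. Plaur was 2.29-fold higher, at 6771 in the late and 2951 in the early array. The tetraspanin gene Cd82 was 1.52-fold higher. Itgbl1, which encodes a secreted protein with repeats like those of beta subunits and is not itself an integrin subunit, was at 101 in the late and 2858 in the early array, at least 25.5-fold lower.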

How the data were processed

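Each of the 2 samples was 1 single-colour array. The values are intensities that the authors deposited, normalized and on a linear scale, in 2 tables with equal values (to 6 significant digits or better) for all 29212 probe sets. How background was corrected, probes were summarised and arrays were normalized, and on which genome build, is not given in the sources used here. After normalization, a change in overall RNA content is invisible.

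Log2 was taken with no pseudocount. Probe sets naming 1 gene were kept and averaged per gene, and symbols are as deposited (31 of the 31 members are current RefSeq symbols). The number of arrays, 1 per group, limits the precision, and no detection calls were used. Alternatives were other fold thresholds, filters, scalings (quantile, median centring, lowess trend removal with span 0.3), probe set rules and a pseudocount of 16. Calculations were tested on simulated data. Any member could be named. Of the 7 ligand, receptor and adaptor lists, up to 2 compared genes per direction at least 1.5-fold apart were named, with some chosen genes whatever their values. Pecam1 and Hspg2 are not analysed here, and 2 genes are not reported here and were left out of all counts. The members, lists and background level were chosen with earlier results of these data known. Python 3.11.15, numpy 2.4.6, pandas 2.3.3, statsmodels 0.14.6 and matplotlib 3.10.9 were used.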

Additional observations from a re-analysis of the deposited data

How the results depend on the processing

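The count of members at least 2-fold lower was 4 under all 9 alternatives that kept the 2-fold threshold, and they were the same genes. The count of higher members was 4 under 8 of these, and 2 (Itga2 and Itga3) with the 75th percentile filter, which removes Itgax and Lamb3 as too dim. With the brightest probe set per gene the floor rose to 8.05, so that Itgax left the higher members and Lama2, at a difference of 1.85, joined them. At 3-fold, 3 members were higher and 3 lower, and at 1.5-fold 6 were higher and 4 lower. The median of the integrin genes was 0.40 as reported, -0.067 with no filter on dim genes and -0.059 with the background filter, since both add dim genes with small differences. The median of all members was 0.16 as reported, -0.060 with no filter, the 75th percentile filter or the background filter, and -0.059 over genes with 1 probe set, and it stayed between 0.11 and 0.19 under the other 5 alternatives. Of 184 recomputed differences of single members, 183 moved by less than the SD of 0.22 given for Lama2, the exception being Lama2 itself. Of the called ones, 0 changed sign. Much of that count was fixed in advance. Only 2 members have 2 probe sets, so the probe set rules could not move the others. Median centring shifts every member by the same amount. Some members below or near background changed sign under quantile normalization, median centring or lowess trend removal, and no direction is given for them. No paired analysis was possible because each group is 1 array.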
